A study of Mus musculus with 44 samples.

Results

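The Stat and Jak family genes described here are 6 genes of the STAT transcription factors (Stat2, Stat3, Stat4, Stat5a, Stat5b and Stat6) and 3 genes of the Janus kinases (Jak1, Jak2 and Jak3), 9 of the 27179 genes counted. They were found by gene symbol, and all 9 were present and passed the filter on low counts in every comparison. The 9 symbols were chosen with results of these libraries known, and Stat4 and Stat6 were selected on their measured difference between genotypes, so that difference is given below as a description with no test. The libraries were made from dorsal hippocampus of WT mice and of mice homozygous for the Kdm5b ΔARID allele, called mutant here. This germline allele removes exons that encode part of the JmjN domain and the ARID domain of KDM5B, a histone H3K4 demethylase, in every cell of the body, so it does not single out a hippocampal cell type. Both genotypes came from F2 intercrosses of a mixed C57BL/6J and 129S2/Sv background, so alleles near the Kdm5b locus travel with the genotype. Mice of both genotypes were either left naive (0 h) or killed 1 h or 3 h after contextual fear conditioning, in which a foot shock is paired with a chamber. Each of the 6 groups held 6 libraries, 1 mouse each, of which 3 were labelled male and 3 female.

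Cytokine receptors without kinase activity of their own carry Janus kinases on their cytoplasmic tails. When a cytokine joins the receptor chains, the kinases phosphorylate the receptor and then the STAT proteins that dock there, and the STATs pair, enter the nucleus and bind DNA. JAK1 and JAK2 serve most receptor classes, whereas JAK3 pairs with the common gamma chain and is best known from lymphocytes. STAT3 carries the signal of the IL-6 and LIF family, also in astrocytes, STAT2 that of type I interferons, STAT4 that of IL-12, STAT5A and STAT5B that of growth hormone and prolactin among others, and STAT6 that of IL-4 and IL-13. The activity of these proteins is set largely by phosphorylation, which messenger RNA levels do not measure.

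Library totals ran from 40274435 to 107000233 counts. The total count of Kdm5b ran from 79.6 to 97.1 CPM (counts scaled to library size with TMM factors) over the WT libraries and from 75.6 to 93.5 CPM over the mutants, and because most exons lie outside the deleted part, it does not check the genotype labels. Checks that do not use Stat4 or Stat6 set some libraries apart. In 2 libraries the sex label was not matched: Xist had 51186 counts and the Y-linked genes 0 in the one labelled WT 1 h male 1, and Xist had 36 counts and the Y-linked genes 10239 in the one labelled mutant 3 h female 2. In addition, each library was placed on a scale on which the other 2 time points put the WT mean at -0.5 and the mutant mean at 0.5, using 21 to 34 genes that differed between genotypes there at an unadjusted p under 0.01. By this scale 4 libraries lay nearer the other genotype, namely those labelled WT 0 h male 1 (0.27), WT 1 h male 1 (0.54), mutant 0 h male 1 (-0.59) and mutant 3 h female 2 (-0.20). These 4 include both libraries of discordant sex, and all were kept under their labels. Why they stand apart was not tested, and values without them one at a time, an alternative added after the data were seen, are given beside the main results that include them.

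Stat4 and Stat6 were the 2 members whose level differed between genotypes, and both were higher in mutants. Stat4 was scarce. In naive WT mice its level had a lowest value of 0.0604, a median of 0.209 and a highest value of 1.05 CPM, and in naive mutants these were 0.388, 0.631 and 1.22 CPM. At 1 h the WT libraries ran from 0.0601 over a median of 0.151 to 0.667 CPM, and the mutants from 0.706 over 0.990 to 1.64 CPM. At 3 h the values were 0.0749, 0.198 and 0.635 CPM in WT, and 0.137, 0.778 and 1.22 CPM in mutants. The groups did not overlap at 1 h, as was the case in either direction for 0.608% of the 17261 genes tested there. At 0 h the library labelled WT 0 h male 1 (1.05 CPM) lay above 5 of the 6 mutant libraries, and at 3 h 3 of the 6 mutant libraries, those labelled female 2 (0.137 CPM), male 3 (0.433 CPM) and male 1 (0.597 CPM), lay within the WT range. These levels rest on 3 to 73 counts a library in WT and 8 to 106 counts in mutants.

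The fitted log2 fold change of Stat4, mutant against WT, was 1.26 (SE 0.58) at 0 h, 1.97 (SE 0.49) at 1 h, 1.74 (SE 0.54) at 3 h and 1.64 (SE 0.33) over the 3 time points, the last a 3.12-fold difference. DESeq2 with a prior and no covariate gave 0.09, 0.18 and 0.13 at 0 h, 1 h and 3 h. DESeq2 with sex and no prior gave 1.31, 1.97 and 1.77. Each of the 4 libraries named above drew these values towards 0. Without the library labelled WT 0 h male 1 the difference at 0 h was 2.02, and without that labelled mutant 0 h male 1 it was 1.5. The lowest value at 0 h, 0.98, came without WT 0 h female 1. Without WT 1 h male 1 the difference at 1 h was 2.60, and without mutant 3 h female 2 the difference at 3 h was 1.91. The lowest values were 1.77 at 1 h, without WT 1 h male 2, and 1.47 at 3 h, without mutant 3 h female 1, and the highest at 3 h was 2.17, without WT 3 h male 2. Over the 3 time points, leaving out each of the 36 libraries in turn gave 1.57 to 1.88.

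Stat6 was measured with 403 to 1353 counts a library and differed less in size. In naive mice the WT libraries ran from 8.74 over a median of 9.87 to 15.0 CPM, and the mutant libraries from 10.8 over 14.9 to 16.9 CPM. At 1 h these values were 9.33, 10.1 and 16.2 CPM in WT, and 12.8, 15.0 and 15.7 CPM in mutants. At 3 h they were 7.71, 9.07 and 13.1 CPM in WT, and 10.6, 15.9 and 17.2 CPM in mutants. The groups overlapped at every time point, and all 18 mutant libraries lay above the median of the 18 WT libraries, 9.87 CPM. The same 4 libraries lay on the far side. WT 0 h male 1 (15.0 CPM) and WT 1 h male 1 (16.2 CPM) were the highest WT libraries of their groups, and mutant 0 h male 1 (10.8 CPM) and mutant 3 h female 2 (10.6 CPM) the lowest mutants of theirs.

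The fitted log2 fold change of Stat6 was 0.44 (SE 0.14) at 0 h, 0.42 (SE 0.12) at 1 h, 0.68 (SE 0.13) at 3 h and 0.52 (SE 0.08) over the 3 time points, the last a 1.43-fold difference. DESeq2 with a prior and no covariate gave 0.26, 0.25 and 0.37 at the single time points. Without WT 0 h male 1 the value at 0 h was 0.57, and without mutant 0 h male 1 it was 0.53. Without WT 1 h male 1 the value at 1 h was 0.55, and without mutant 3 h female 2 that at 3 h was 0.75. With any 1 library left out, Stat6 had 0.38 to 0.57 at 0 h, 0.36 to 0.55 at 1 h and 0.60 to 0.76 at 3 h. Over the 3 time points the values with each library left out were 0.49 to 0.55. In bulk tissue, fewer cells of a type and less RNA per cell cannot be told apart, here and in all results that follow.

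**Figure D1:**
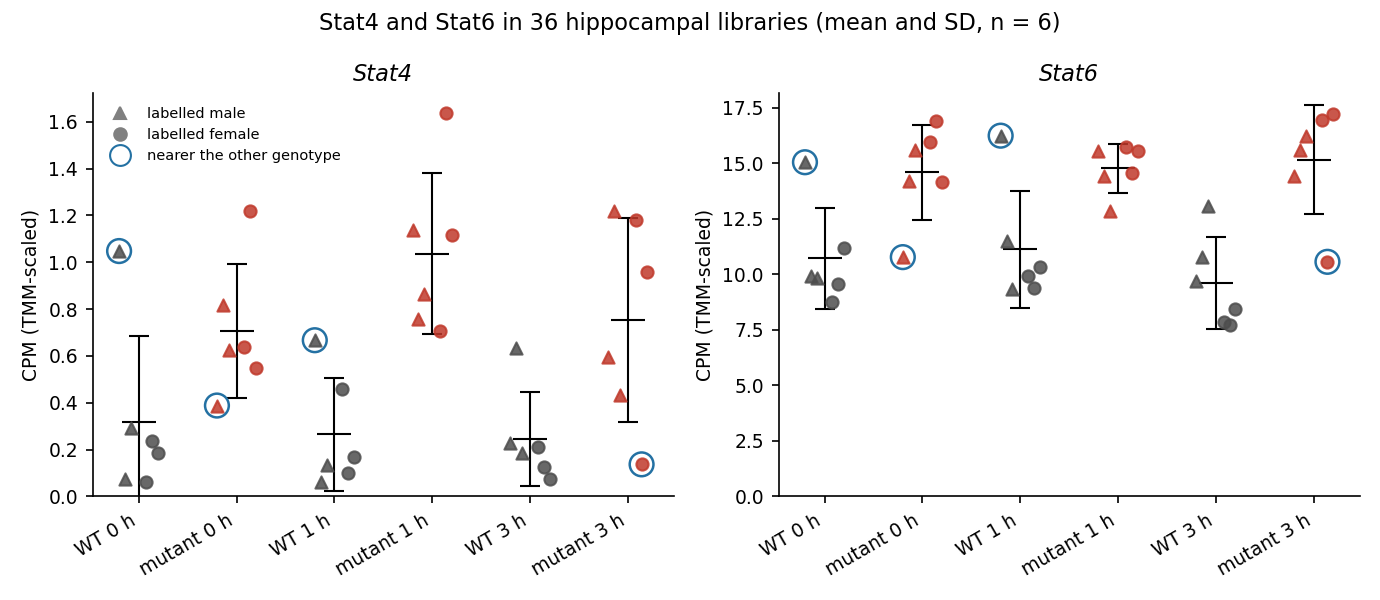
Level of Stat4 (left) and Stat6 (right) in CPM in each of the 36 libraries, by genotype and time after training, with triangles for libraries labelled male, circles for those labelled female, and black bars for the mean and SD of 6 libraries (cut at 0). Blue rings mark the 4 libraries that lay nearer the other genotype over other genes. In Stat4 at 1 h the mutant libraries, 0.706 CPM and above, all lie over the WT libraries, and in Stat6 the ringed WT libraries reach 15.0 and 16.2 CPM.

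The promoter windows of Stat4 and Stat6 are printed because these are the 2 genes that differed, together with that of Jak2, a member that did not, as a contrast in CpG content. KDM5B acts on H3K4me3, a mark found mainly at CpG-rich promoters. Each window is the 250 bases before a transcript start in RefSeq (GRCm38.p6). For Stat4 and Stat6 the last 42 and 31 bases of the window lie within the annotated span of the gene, and the sequence is printed up to that span. The sequences run 5′ to 3′ on the plus strand, on which all 3 genes lie, with every CG in capitals. The printed bases are chr1:51986898-51987105 for Stat4, chr10:127642736-127642954 for Stat6 and chr19:29251553-29251802 for Jak2.
Stat4: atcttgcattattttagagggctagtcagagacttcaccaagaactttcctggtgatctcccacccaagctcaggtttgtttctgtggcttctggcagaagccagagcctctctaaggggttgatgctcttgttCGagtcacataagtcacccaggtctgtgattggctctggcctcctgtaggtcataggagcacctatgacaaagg
Stat6: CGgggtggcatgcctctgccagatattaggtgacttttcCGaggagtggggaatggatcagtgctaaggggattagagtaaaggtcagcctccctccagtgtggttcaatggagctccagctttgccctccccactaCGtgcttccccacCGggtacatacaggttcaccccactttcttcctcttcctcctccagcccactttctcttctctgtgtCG
Jak2: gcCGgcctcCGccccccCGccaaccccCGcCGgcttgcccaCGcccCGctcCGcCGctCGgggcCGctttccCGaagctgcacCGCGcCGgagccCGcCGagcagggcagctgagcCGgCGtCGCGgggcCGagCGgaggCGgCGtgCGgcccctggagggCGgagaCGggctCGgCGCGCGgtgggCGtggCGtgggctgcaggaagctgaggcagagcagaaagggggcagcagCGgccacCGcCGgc
The pattern CG, which reads alike on both strands, stood once in the Stat4 window, 6 times in that of Stat6 (5 of them printed) and 37 times in that of Jak2, against a median of 6 over 32851 promoter windows of this length. A second annotated Stat4 start, 52007990-52008239 on chromosome 1, held 3. All 9 members matched an entry, with 12 windows in all, and those of the other members held 5 (the first Stat5a and Stat5b windows) to 40 CG (the second Stat5b window). None of the 12 windows held TTCNNNGAA, the palindromic letters of a STAT binding element, which 7.02% of all windows held on either strand.

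Stat4 lies on chromosome 1 (GRCm38, plus strand, 51987106-52107189), 82.5 Mb from Kdm5b on the same chromosome, and Stat6 on chromosome 10 (plus strand, 127642955-127660987). Within 1 Mb of Stat4, 14 of 16 annotated genes present in the files were tested over the 3 time points and 0 were called by edgeR at an adjusted p under 0.05, where 1.3% of all genes were called. Among those with the smallest unadjusted p values there was Nabp1, a single-stranded DNA binding protein, with a fitted value of -0.12 (SE 0.06, edgeR adjusted p 0.335). Within 1 Mb of Stat6, 72 of 86 genes were tested and 1 was called. This was Myl6b, a myosin light chain, which was higher in mutants by 0.31 (SE 0.06, adjusted p 0.0037), and the next, Baz2a, a chromatin remodelling subunit, had 0.07 (SE 0.03, adjusted p 0.147). Among the genes that overlap these members in the annotation, Nab2, a corepressor of EGR factors, shares 40 exonic bases with Stat6 on the opposite strand. Its level was 46.1 ± 4.90 CPM in WT and 46.0 ± 5.72 CPM in mutants (SD, n = 18 each), and its Pearson r with Stat6 over the 36 libraries was -0.22. The pseudogene Gm3940 lies within Stat4 with no shared exonic base and reached at most 6 counts.

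The genes whose level most resembled that of Stat4 over the 36 libraries, by Pearson r of log2 CPM among 18185 genes, were Pamr1 (0.82), Stat6 (0.81), Eya1 (0.81), Cnn2 (0.80) and Mpzl2 (0.80). For Stat6 they were Eya1 (0.85), Mst1r (0.85), Myl6b (0.83), Ogn (0.83) and Stat4 (0.81). All libraries of both genotypes entered these values, so a gene that differs between genotypes scores high in them whatever else it does. Cnn2, an actin-binding calponin, was 4.70 CPM in WT and 7.18 CPM in mutants on average. Mpzl2, a cell adhesion protein, was 1.39 CPM in WT and 5.04 CPM in mutants. By Spearman rho, 3 of the 5 genes were the same for each of Stat4 and Stat6.

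The 9 genes spanned a wide range of levels. Per kb of annotated exon, Jak1 was highest at 29.3 ± 1.29 CPM per kb (SD over 36 libraries), followed by Jak2 at 10.01 ± 0.632, Stat3 at 5.89 ± 0.475, Stat2 at 5.14 ± 0.445, Stat5b at 4.35 ± 0.578, Stat6 at 2.88 ± 0.688, Jak3 at 1.19 ± 0.157, Stat5a at 0.360 ± 0.122 and Stat4 at 0.143 ± 0.110. In all 36 libraries Jak1 lay above Jak2, Jak2 above Stat3, Stat5b above Stat6, Stat6 above Jak3 and Jak3 above Stat5a. The remaining neighbours crossed in some libraries, Stat3 lying above Stat2 in 33, Stat2 above Stat5b in 31 and Stat5a above Stat4 in 32 of the 36. Jak1 also varied least, with a coefficient of variation of 4.40%, and Stat4 most, with 76.9%. The pair of STAT5 genes, which lie side by side on chromosome 11 and are read in opposite directions, stood far apart in level, and Stat5a had 0.107 of the CPM of Stat5b. Their log2 CPM nevertheless moved together, with a Pearson r of 0.75 over the 36 libraries, the second highest among the 36 pairs of members after Stat4 with Stat6.

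**Figure D2:**
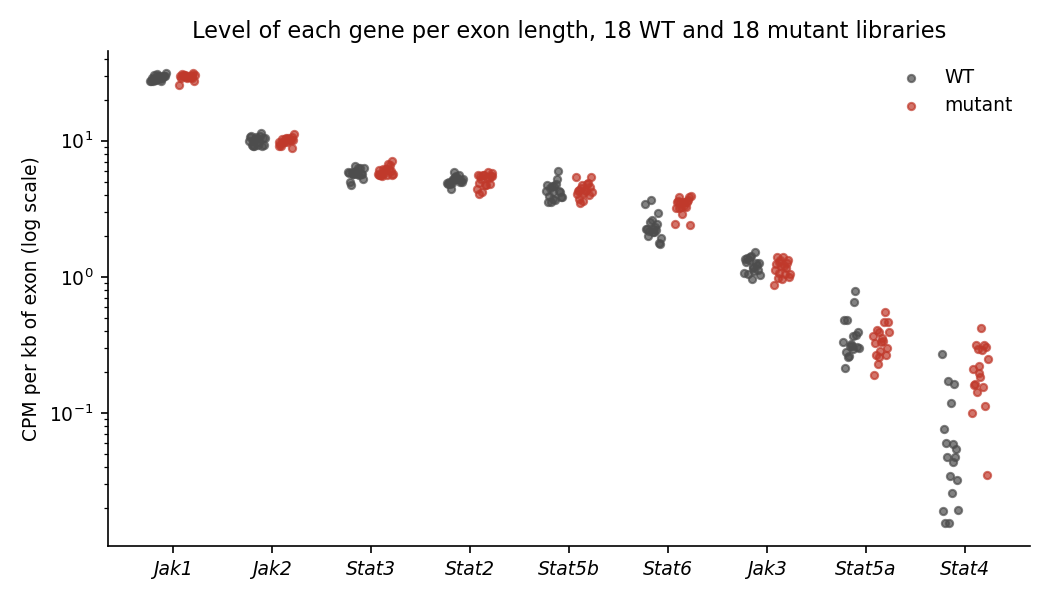
Level of each gene in CPM per kb of annotated exon (log scale) in 18 WT (grey) and 18 mutant (red) libraries, in order of the mean. Jak1 lies near 29.3 CPM per kb and Stat4 near 0.143, and the WT and mutant points overlap in the other 7 genes while the mutant points of Stat4 and Stat6 are shifted upwards.

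None of the kinase genes passed the test between genotypes. Jak1, the broadly used kinase, was 210 ± 9.20 CPM in WT and 213 ± 9.26 CPM in mutants (SD, n = 18 each), with a fitted log2 fold change over the 3 time points of 0.03 (SE 0.02) and an interval of 2 SE from -0.02 to 0.07. The library labelled mutant 0 h male 1 held the lowest Jak1 level, 187 CPM, and without it the value was 0.03 (edgeR adjusted p 0.389). Jak2, which serves hormone and growth factor receptors, was 50.5 ± 3.50 CPM in WT and 50.2 ± 2.90 CPM in mutants, with -0.01 (SE 0.03) and an interval from -0.07 to 0.05. Jak3 was 6.57 ± 0.824 CPM in WT and 6.22 ± 0.845 CPM in mutants, with -0.08 (SE 0.07) and an interval from -0.21 to 0.05. Jak3 shares 404 exonic bases on the same strand with Insl3, so reads there could be assigned to either gene or to none, and Insl3 reached at most 20 counts. Jak1 shares 4 exonic bases with Raver2, an RNA binding protein at 56.5 CPM on average.

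Of the other STAT genes, 0 of 4 passed it. Stat2 was 30.4 ± 1.97 CPM in WT and 30.6 ± 3.23 CPM in mutants, with 0.01 (SE 0.04, 2 SE interval -0.07 to 0.09). Stat3 was 55.0 ± 4.51 and 57.1 ± 4.42 CPM, with 0.05 (SE 0.03, interval -0.01 to 0.12). Stat5b was 23.9 ± 3.50 and 24.3 ± 2.96 CPM, with 0.02 (SE 0.06, interval -0.09 to 0.14). Stat5a, the least certain of them, was 2.67 ± 1.05 and 2.46 ± 0.661 CPM, with -0.10 (SE 0.13, interval -0.36 to 0.16). For these 4 genes and the kinases, edgeR adjusted p values over the 3 time points ran from 0.484 to 0.955. At the single time points their fitted values ran from -0.20 (Stat5a) to 0.05 (Jak1) at 0 h, from -0.09 (Stat2) to 0.07 (Stat5a) at 1 h and from -0.14 (Stat5a) to 0.10 (Stat3) at 3 h, and 0 of these 7 genes reached even an unadjusted p under 0.05 at any of them.

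**Figure D3:**
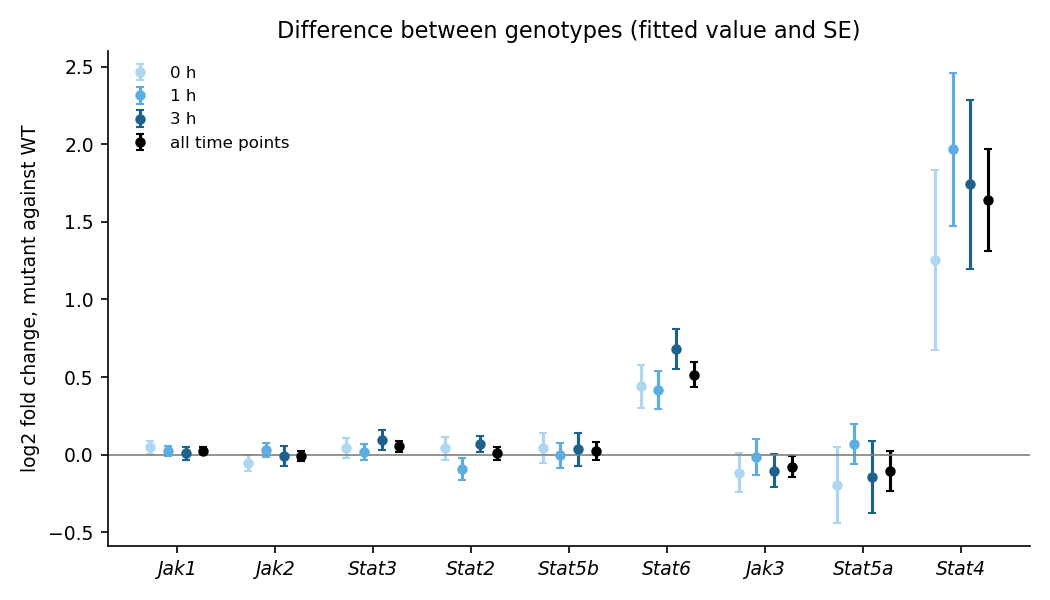
Fitted log2 fold change of mutant against WT with its SE for each gene at 0 h, 1 h and 3 h (12 libraries each) and over all time points (36 libraries, black). Stat4 (1.64 over all time points) and Stat6 (0.52) lie above 0 at each time point, and the other 7 genes lie between -0.20 and 0.10.

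Over all genes, 0% were called between genotypes at 0 h (0 of 17336, with 1066 at an unadjusted p under 0.05) and at 1 h (0 of 17261, with 1487), 0.0115% at 3 h (2 of 17394) and 1.3% over the 3 time points (237 of 18186), all by edgeR. The members called were 0 of 9 at each single time point and 2 of 9 over the 3 time points. Those 2 were Stat4 and Stat6, whose contrast chose them, so nothing is read from this count. DESeq2 with sex as a covariate called 16 genes at 0 h and 100 at 1 h. Leaving out WT 1 h male 1, edgeR called 41 genes at 1 h, and leaving out mutant 3 h female 2 it called 18 at 3 h.

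No member passed the test in any response to training. At 1 h in WT mice, Stat2 was the one member whose groups did not overlap. Its level ran from 26.1 over a median of 28.7 to 29.6 CPM in naive WT mice and from 30.6 over 31.5 to 34.7 CPM at 1 h, as was true in either direction of the groups of 0.248% of the 17319 genes tested. The lowest naive value, 26.1 CPM in the library labelled WT 0 h female 2, stood apart from the other 5. Its fitted log2 fold change was 0.16 (SE 0.05), which did not pass the test over all genes (edgeR adjusted p 0.922). Leaving out WT 0 h male 1 gave 0.17 (adjusted p 0.974), and leaving out WT 1 h male 1 gave 0.18 (adjusted p 0.448). In mutants the corresponding values were 24.2, 29.9 and 33.0 CPM in naive mice and 24.9, 30.2 and 33.4 CPM at 1 h, which overlap throughout, with a larger spread (SD 3.51 CPM in naive mutants against 1.2 CPM in naive WT). At 3 h WT Stat2 had 29.5, 30.9 and 32.9 CPM, a change of 0.12 (SE 0.04, adjusted p 0.514).

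Stat3 was 52.4 ± 5.04 CPM in naive WT, 57.3 ± 3.38 CPM at 1 h and 55.4 ± 4.16 CPM at 3 h, and 54.1 ± 2.16, 58.1 ± 3.92 and 59.2 ± 5.45 CPM in mutants (SD, n = 6 each). The change at 3 h in mutants was 0.13 (SE 0.06, edgeR adjusted p 0.566), and it was 0.08 without the library labelled mutant 3 h female 2, which held the highest Stat3 level, 67.2 CPM. Stat5a at 3 h ran from 2.15 over a median of 2.75 to 5.65 CPM in WT and from 1.92 over 3.07 to 3.96 CPM in mutants, against 1.53, 2.18 and 3.45 CPM and 1.35, 2.12 and 2.89 CPM in the naive groups. These groups overlap, and in WT at 3 h the libraries labelled male 1 and male 2, at 4.66 and 5.65 CPM, lay above the other 4. The same 2 libraries were the highest for Stat5b in that group, at 29.2 and 33.2 CPM.

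**Figure D4:**
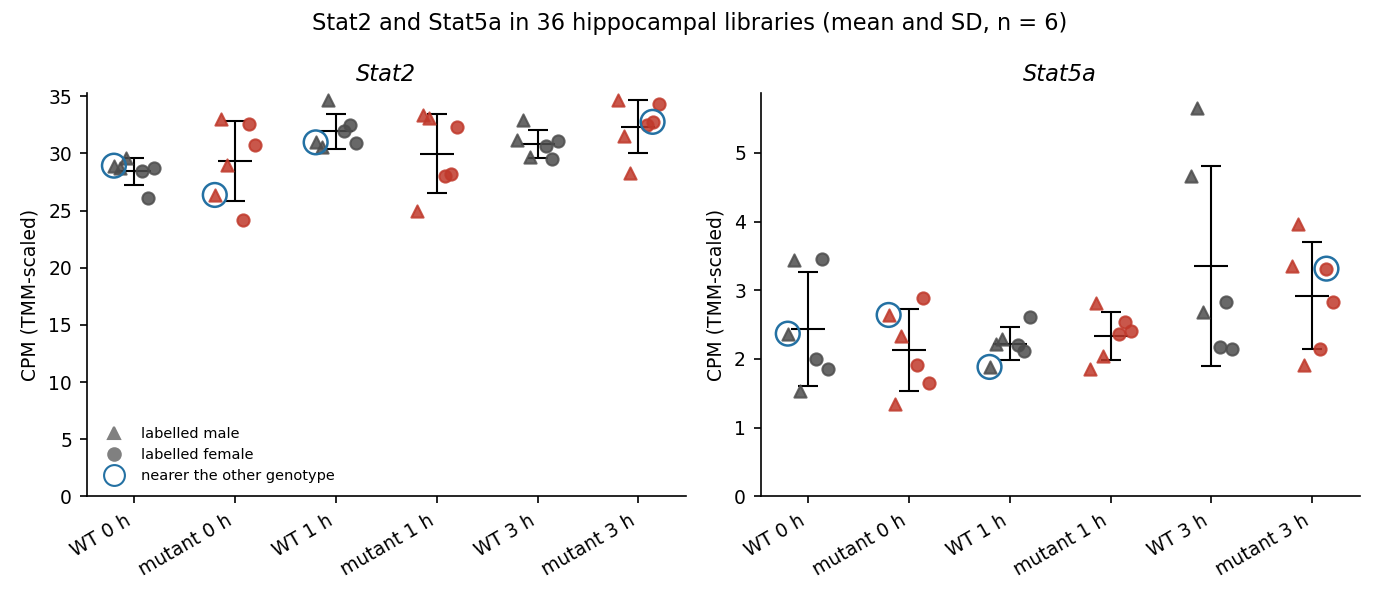
Level of Stat2 (left) and Stat5a (right) in CPM in each library, with symbols, bars and rings as in the plot of Stat4 and Stat6 by library. WT Stat2 at 1 h (30.6 CPM and above) lies over the naive WT libraries (29.6 CPM and below), and 2 WT libraries reach 4.66 and 5.65 CPM of Stat5a at 3 h.

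The 24 libraries of both genotypes at 2 time points were also fitted together with genotype and sex as covariates, a comparison added after the data were seen. In it Stat3 differed at 1 h by 0.11 (SE 0.04, edgeR adjusted p 0.203). At 3 h Stat2 differed by 0.13 (SE 0.04, adjusted p 0.141), Stat3 by 0.10 (SE 0.05, adjusted p 0.271), Stat5a by 0.44 (SE 0.18, adjusted p 0.231) and Stat5b by 0.15 (SE 0.07, adjusted p 0.300), and 0 of 9 members passed the test at either time. The background was 1.05% of genes called at 1 h and 1.57% at 3 h. In the 2 genotypes taken separately, 0 of 9 members were called in any response, against 0% of genes in WT at 1 h and at 3 h, 0.312% in mutants at 1 h and 0% in mutants at 3 h. Stat4 and Stat6 were not called in any response. Over the 4 responses their fitted values ran from -0.36 to 0.55 for Stat4 and from -0.18 to 0.06 for Stat6. The naive libraries served as the controls of both the 1 h and the 3 h responses, which are therefore not independent of each other.

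**Figure D5:**
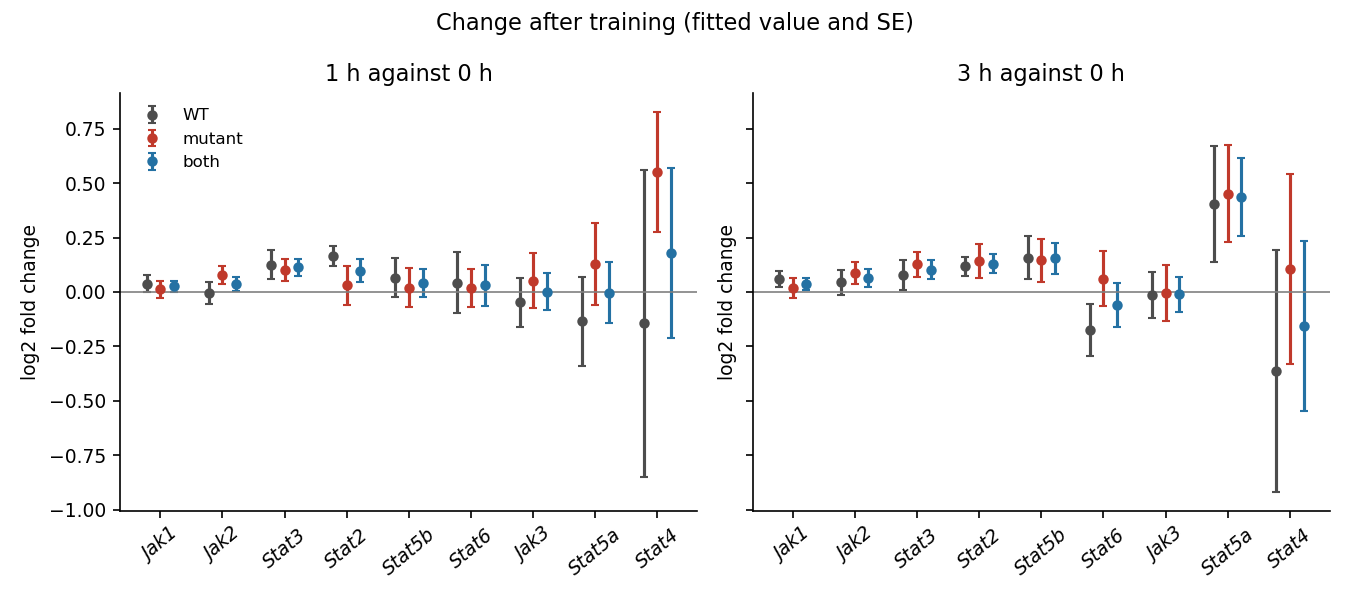
Fitted log2 fold change with its SE at 1 h (left) and 3 h (right) against 0 h in WT (12 libraries), in mutants (12) and in both genotypes together (24). No value passed the test over all genes; Stat5a at 3 h has the highest value of the joint fit, 0.44, and Stat4 the widest errors.

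The genotype difference in the response was tested as an interaction over 24 libraries. At 1 h the members' values ran from -0.14 (Stat2) to 0.81 (Stat4) and at 3 h from -0.04 (Jak1) to 0.46 (Stat4). None of the 9 was called at 1 h or at 3 h (edgeR adjusted p 0.999 and above), against 0% of genes at 1 h (677 of 17907 at an unadjusted p under 0.05) and 0% at 3 h (273 of 17926), and 0 members reached an unadjusted p under 0.05. DESeq2 with sex called 2 genes at 1 h and 0 at 3 h. The SE of the Stat4 value was 0.78 at 1 h, with a 2 SE interval from -0.75 to 2.37, and 0.80 at 3 h, with an interval from -1.13 to 2.05.

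Other genes of the pathway were counted from lists of 26 receptors, 20 ligands, 18 inhibitors, 12 STAT3 targets, 12 STAT5 and STAT6 targets and 18 interferon targets. Between genotypes over the 3 time points, 0 of 26 receptor genes, 0 of 18 inhibitors, 0 of 12 STAT3 targets, 0 of 10 STAT5 and STAT6 targets and 0 of 17 interferon targets tested were called, and 2 of 13 ligands were, against 1.3% of all genes. Those 2 were Gh and Prl, growth hormone and prolactin, which are made by the anterior pituitary and signal through JAK2 and STAT5. The fitted value was -4.05 for Gh (SE 0.84, edgeR adjusted p 0.0090) and -3.56 for Prl (SE 0.89, adjusted p 0.037). With each library omitted in turn, Prl was still called in 23 and Gh in 36 of the 36 fits. The Prl call was also lost by edgeR without the sex covariate, and by DESeq2 with a prior and no covariate. Both were spread widely within WT, Gh from 0.014 to 129 CPM and Prl from 0 to 245 CPM. The STAT5 and STAT6 targets with the smallest unadjusted p values over the 3 time points or in the mutant 1 h response included Igf1 (0.09 between genotypes) and Pim1 (-0.27 in mutants at 1 h).

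In the responses to training, the receptor genes Il11ra1 and Cntfr, ligand-binding chains for IL-11 and CNTF that signal through gp130 and STAT3, rose at 3 h over both genotypes, where 1.57% of all genes were called, by 0.25 (SE 0.06, edgeR adjusted p 0.0355) and 0.19 (SE 0.05, adjusted p 0.0438). Neither was called without the library labelled WT 0 h male 1 (adjusted p 0.0605 for Il11ra1 and 0.0800 for Cntfr) or without mutant 0 h male 1 (0.0551 and 0.0724). Il11ra1 was 23.6 CPM in naive WT mice and 27.8 CPM at 3 h, and 23.7 and 28.7 CPM in mutants. Of the inhibitors, Ptpn1, a phosphatase that acts on JAK2, rose at 1 h by 0.28 in mutants (SE 0.05, adjusted p 0.0252) and by 0.21 over both genotypes (SE 0.04, adjusted p 0.0072). With each of the 12 libraries omitted in turn, the call in mutants held 5 times. That call was also lost when sex and replicate number were fitted as a block in place of sex. Socs5, a suppressor of cytokine signalling, rose at 1 h over both genotypes by 0.13 (SE 0.03, adjusted p 0.0364), and was not called without WT 0 h male 1 (adjusted p 0.0519) or without mutant 0 h male 1 (0.0607). The other 16 inhibitors were not called.

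Of the 12 STAT3 targets, 4 rose at 1 h over both genotypes, where 1.05% of all genes were called. They were Fos (1.25, SE 0.24, edgeR adjusted p 0.0128), Junb (0.75, SE 0.14, adjusted p 0.0128), Bcl6 (0.34, SE 0.07, adjusted p 0.0155) and Mcl1 (0.20, SE 0.05, adjusted p 0.0392). All 4 were still called when the libraries labelled WT 0 h male 1, mutant 0 h male 1 and WT 1 h male 1 were left out in turn. Fos and Junb are immediate early genes that neuronal activity induces by other routes as well, Bcl6 is a transcriptional repressor and Mcl1 an inhibitor of apoptosis. Fos went from 11.1 CPM in naive WT mice to 25.5 CPM at 1 h and from 11.6 to 28.8 CPM in mutants. In mutants alone Bcl6 passed the test at 1 h (0.45, SE 0.07, adjusted p 0.0149). This call held with each of the 12 libraries omitted in turn. It was lost when sex and replicate number were fitted as a block in place of sex.

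The interferon targets, genes bound by the complex of which STAT2 is a part, were not called in any comparison with all libraries kept. Over the 3 time points 10 of 17 had a fitted value below 0 in mutants against WT, and 2 of 17 reached an unadjusted p under 0.05, where 15.2% of all genes did, so this count does not set the list apart. Named by the smallest unadjusted p, they were Bst2, which tethers budding virus particles to the cell (-0.44, SE 0.18, edgeR adjusted p 0.226), and Irf7, a transcription factor of the interferon response (-0.33, SE 0.16, adjusted p 0.313). Bst2 was 3.59 CPM in naive WT, 3.57 at 1 h and 3.32 at 3 h, and 2.55, 2.29 and 2.94 CPM in mutants. Irf7 was 1.34, 1.54 and 1.12 CPM in WT, and 1.05, 0.929 and 1.21 CPM in mutants. At 1 h all 17 tested had a fitted value below 0 in mutants against WT, with a median of -0.44 where that of all genes was 0.00, and 8 of 17 had an unadjusted p under 0.05, as did 8.61% of all genes. At 3 h 15 of 17 had a value above 0, with a median of 0.26, and 7 of 17 had an unadjusted p under 0.05, as did 6.36% of all genes. Bst2 was below 0 there (-0.16). When WT 1 h male 1 was left out, 17 of 17 lay below 0 at 1 h, with a median of -0.47. When mutant 3 h female 2 was left out, 14 of 17 lay above 0 at 3 h, with a median of 0.27. Oasl2, an interferon-induced antiviral gene, was 2.33 CPM in naive WT, 2.91 at 1 h and 1.74 at 3 h, and 2.51, 1.59 and 2.45 CPM in mutants. Its difference at 1 h was -0.86 (SE 0.24, edgeR adjusted p 0.346, and -0.97 with adjusted p 0.136 without WT 1 h male 1) and the interaction at 1 h -0.97 (SE 0.32, adjusted p 0.999). Irf9, the partner of STAT2 in that complex, was 9.60, 12.7 and 9.40 CPM in WT and 9.06, 10.3 and 10.1 CPM in mutants. Its change at 1 h over both genotypes was 0.29 (SE 0.08, adjusted p 0.0800), and without WT 1 h male 1 it was called, at 0.33 (adjusted p 0.0211). Genes of this list share their regulators, so their common sign is not 17 separate results.

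Markers of cell types and neighbouring tissue were summed in the same libraries. Hippocampal neuron markers (9 genes) were present in every library and summed to 893 to 1190 CPM in the WT libraries and 867 to 1163 CPM in the mutants. Over the 3 time points 6 of these 9 had a fitted value below 0 in mutants against WT, with a median of -0.13 where that of all genes was 0.00, and 5 had an unadjusted p under 0.05, as did 15.2% of all genes in this comparison. The 1 called was C1ql2, a marker of dentate granule cells, which was higher in mutants by 0.74 (SE 0.15, edgeR adjusted p 0.0090). Astrocyte markers summed to 2266 ± 144 CPM in WT and 2383 ± 98.0 CPM in mutants (SD, n = 18 each). All 7 had a value above 0, 3 with an unadjusted p under 0.05, and the 1 called was Gja1, an astrocytic gap junction protein, higher by 0.13 (SE 0.03, adjusted p 0.0352). These 2 genes were named after their values were seen. All 7 oligodendrocyte and all 6 thalamus markers had values above 0, with 0 called and 0 and 1 at an unadjusted p under 0.05. Of 6 striatal markers 5 had values above 0, with a median of 0.20, 3 at an unadjusted p under 0.05 and 0 called. At 0 h the median was 0.50 with 3 of 6 at that threshold, as were 6.15% of all genes at 0 h. The striatal markers summed to 88.9 ± 15.7 CPM in WT and 93.9 ± 17.4 CPM in mutants (SD, n = 18 each). Of 10 T and NK cell markers, Zap70 and Lck held nearly all of the sum, which ran from 4.23 to 8.83 CPM over the WT libraries and from 4.50 to 6.30 CPM over the mutants, and the other 8 reached at most 12 counts in a library (Gzma), with Cd3g at 0 in 25 libraries. Zap70 and Lck were above 0 in all 36 libraries, with medians of 275 and 96 counts. Microglial markers summed to 389 ± 37.3 CPM in WT and 386.5 ± 32.8 CPM in mutants. In mutants against WT, 1 of 10 had a value above 0 at 1 h (median -0.08) and 8 of 10 at 3 h (median 0.04). Endothelial markers summed to 159 ± 14.4 CPM in WT and 158 ± 10.6 CPM in mutants. Of these, 2 of 8 had a value above 0 at 1 h (median -0.07) and 6 of 8 at 3 h (median 0.04). In both lists 0 were called at either time. Choroid plexus markers summed to values between 33.1 and 894 CPM in WT and between 33.3 and 391 CPM in mutants, and all 9 had an unadjusted p under 0.05 towards lower values in mutants over the 3 time points, with 0 called. Over the 10 marker lists and the 36 libraries, the Pearson r of the sum with Stat4 ran from -0.51 (T and NK cell list) to 0.47 (astrocytes). It was 0.46 for neocortex and -0.37 for choroid plexus. The r with Stat6 ran from -0.48 (T and NK cell list) to 0.42 (astrocytes). Libraries of both genotypes entered these values, so a marker sum that differs between genotypes has an r with Stat4 and Stat6 whatever else it does. Choroid plexus markers had an r of 0.48 with Stat5a and -0.53 with Jak1. Striatal markers had 0.50 with Stat5a and 0.57 with Stat5b, and oligodendrocyte markers 0.43 and 0.60. Marker lists also moved in the responses to training. In mutants at 1 h 0 of 6 striatal markers had a value above 0 (median -0.41), and 7 of 9 hippocampal neuron markers did (median 0.20). At 3 h over both genotypes all 9 choroid plexus markers had values above 0 (median 0.46), and 1 of 10 microglial markers did (median -0.15). In these 4 cases 0 markers were called. The part of tissue content in these results was not tested.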

How the data were processed

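RNA of dorsal hippocampus was sequenced as poly-A selected paired-end libraries. The authors aligned the reads with STAR 2.7.8a to mm10 and made the deposited raw counts per gene with featureCounts 2.0.1. The annotation, strand setting and treatment of multi-mapping reads are not given in the sources used here. Symbols were taken from RefSeq (25275 of 27179 identifiers matched), and exon lengths from GENCODE. Counts were fitted with edgeR 4.0.16 (R 4.3.3) by the robust quasi-likelihood F-test with sex as labelled as a covariate, after filterByExpr (minimum count 10) and TMM scaling, with Benjamini-Hochberg adjustment over all genes tested and a threshold of 0.05. The fit was tested on simulated data. Each SE is the log2 fold change divided by the root of F. Levels are CPM on 1 TMM scaling of the 36 libraries, correlations use a prior count of 2, and the depth, 40274435 to 107000233 counts, limits chiefly Stat4.

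All 9 members are named. A fitted value is printed where the unadjusted p was under 0.05, over the 3 time points, and for Stat4 and Stat6 between genotypes. Pathway genes are named where called, otherwise by the smallest unadjusted p, and 2 genes that this rule names are not reported here. The members, lists and tests were chosen with earlier results of these data known. Alternatives were DESeq2 1.42.0 with sex or with a prior, RLE factors, no filter, no sex covariate, a block of sex and replicate number, the 2 sex-discordant libraries left out, and each library left out. No 2 of the 90 pairs of libraries within groups were identical. The 8 samples of the first cohort were not analysed here.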

Additional observations from a re-analysis of the deposited data

Results flagged for a closer look

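In 6 of the 54 combinations of gene and group tested, 1 library lay farther from the other 5 than Dixon's 95% critical value for 6 samples allows, where chance gives about 1 in 20 groups. Stat4 was 1.05 CPM in the library labelled WT 0 h male 1, against 0.0604 to 0.294 CPM in the rest of its group, and 0.635 CPM in that labelled WT 3 h male 2, against 0.0749 to 0.230 CPM. Stat6 was 16.2 CPM in the library labelled WT 1 h male 1, against 9.33 to 11.5 CPM. Stat2 was 26.1 CPM in WT 0 h female 2, against 28.4 to 29.6 CPM. Stat3 was 58.4 CPM in mutant 0 h male 3, against 52.5 to 53.9 CPM. Jak1 was 187 CPM in mutant 0 h male 1, against 210 to 222 CPM. Of these 6 values, 3 come from the 4 libraries that lay nearer the other genotype over other genes.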

How the results depend on the processing

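The fitted values of Stat4 and Stat6 between genotypes kept their sign under every alternative run. Between genotypes, the genes called with DESeq2 and sex numbered 16 at 0 h, 100 at 1 h, 51 at 3 h and 561 over the 3 time points, and with a prior and no covariate 12, 98, 32 and 498, against 0, 0, 2 and 237. In the same order, the responses gave 7 and 6 genes in WT at 1 h, 62 and 51 in WT at 3 h, 367 and 387 at 1 h in mutants, 127 and 129 in mutants at 3 h, and over both genotypes 424 and 434 genes at 1 h, then 724 and 715 at 3 h. DESeq2 with sex called 2 genes for the genotype difference in the 1 h response. Both DESeq2 fits called 1 member at 1 h and 1 at 3 h between genotypes. Here and below the members called between genotypes are Stat4 and Stat6, which were chosen on that contrast, so their number supports nothing. DESeq2 with a prior brought the Stat4 values of the 3 time points to 0.09, 0.18 and 0.13. The cause of these differences was not tested.

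Without the 2 sex-discordant libraries, the genes called were 41 at 1 h and 18 at 3 h between genotypes, with 2 members and 1 member among them, 507 over the 3 time points, 3 in WT at 1 h, 1 in mutants at 3 h, and over both genotypes 359 (1 h) and 529 (3 h). With no covariate for sex, 3 genes were called between genotypes at 1 h. Whether the replicate numbers pair libraries could not be decided. Same-number correlations ran from -0.24 to 0.31, and in each comparison 2 to 4 of the 6 pairs were over 0.1. In each, 3 to 6 of the 12 libraries correlated best with their own number. No chance level was computed for these values. Differences by sex were left in them, and libraries of the same number share their labelled sex. With the replicate block, 5 genes were called at 1 h and 0 at 3 h between genotypes and 452 at 3 h over both genotypes, and in mutants at 1 h the calls of Bcl6 (adjusted p 0.052) and Ptpn1 (0.069) were lost. Prl was no longer called by edgeR without the sex covariate, nor by DESeq2 with a prior and no covariate.

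With each library left out in turn, the genes called between genotypes ran from 0 to 5 at 0 h, 0 to 41 at 1 h (41 without WT 1 h male 1), 0 to 18 at 3 h (18 without mutant 3 h female 2) and 169 to 368 over the 3 time points, and the members called from 0 to 2 at 1 h, 0 to 1 at 3 h, and 2 throughout over the 3 time points. In the responses the genes called ran from 0 to 3 in WT at 1 h, 0 to 8 in WT at 3 h, 26 to 86 in mutants at 1 h (26 without mutant 0 h male 3, 86 without mutant 0 h female 2) and 0 to 10 in mutants at 3 h, with 0 members called. With the libraries nearer the other genotype left out in turn, the genes called over both genotypes ran from 113 (without mutant 0 h male 1) to 359 (without WT 1 h male 1) at 1 h and from 142 (without WT 0 h male 1; 173 without mutant 0 h male 1) to 529 (without mutant 3 h female 2) at 3 h, with 0 members called. Levels under RLE factors or plain totals moved by less than 1 SD in all 108 group means. The prior could not be used for the interactions. At 3 to 106 counts a library, depth limits Stat4.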
